A study of Glycyrrhiza uralensis with 24 samples.

Results

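Salt raises the osmotic pressure around a plant and loads its cells with sodium and chloride. Roots meet the salt first, while stems and leaves respond to lost water, to ions carried up in the sap and to long-distance signals, among which abscisic acid is the best known. Gene programmes in shoots and roots therefore often differ, and the genes described here are those that met a threshold for higher expression in the aerial parts of salt-treated licorice at an early and at a late time without meeting it in roots.

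Of the 34445 gene IDs in the files, 14 belonged to this set. They were chosen by measured values. In aerial parts, all 3 libraries at 2 h and all 3 at 12 h had to lie above all 3 controls. The ratio of group means, with 1 TPM added to each mean, had to reach 3, and the larger of the means compared had to be at least 10 TPM. In roots neither time could pass these limits in either direction. TPM is a length-scaled share of the transcripts of a library. The aerial values at 0, 2 and 12 h, and their ratios to control, are thus given as a description and were not tested. The 6 h libraries took no part in the choice.

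The plants were seedlings of Glycyrrhiza uralensis, a licorice legume valued for glycyrrhizin and liquiritin, 60 days old. Controls at 0 h were kept in distilled water, and the salt groups spent 2, 6 or 12 h in a nutrient solution (MS) with 150 mM NaCl. The labels' protocol calls this a simulated drought. Stems and leaves (aerial parts) and roots were each sequenced in 3 libraries per time, 24 in all, and the study asked which genes and pathways accompany the accumulation of active compounds in salt. Salt differed from control in medium as well as in NaCl, no control was taken at later hours, and the titles of the controls follow another pattern than those of the salt libraries, so medium, time of day, a possible batch and salt cannot be told apart. The labels do not say whether libraries came from separate plants, so p-values measure the spread between these libraries, which may be technical.

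The listed TPM summed to between 391447 and 510545 per library, and read depth is unknown. Expression of whole organs cannot tell more cells of a type from more RNA per cell. The files do not pair IDs with gene names, so the function of the 14 genes is not given and the labelled organs were not checked against marker genes. The 6 h replicate 2 library stood apart in both organs. Its root mean square distance from the other 2 libraries of its group, over log2(TPM + 1) of all other genes, was 1.19 in aerial parts and 1.42 in roots, against 0.65 to 0.89 for other aerial and 0.71 to 0.98 for other root salt libraries. The aerial count, the sum and the organ test at 6 h are therefore given with and without it, and the root limits at 6 h with it alone.

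The limits were met in aerial parts by 260 of 6952 genes at 2 h (3.74%) and by 135 of 6906 at 12 h (1.95%), counted over genes whose larger mean reached 10 TPM. Both limits were met by 20 genes, and 6 of these were left out because roots met a limit as well: 1 was higher in roots at both times, 3 at 2 h, 1 at 12 h, and 1 was lower in roots at 12 h. The remaining 14 lay close to the limits in part. The smaller of the aerial ratios was 3.12 for Glyur000065s00004304, 3.19 for Glyur000670s00020744 and 3.48 for Glyur001201s00028276, while just outside stood Glyur001502s00031887 at 2.96, Glyur000696s00018501 at 2.96 and Glyur002538s00029058 at 2.94. By level, Glyur000677s00026182 was just inside with a smaller salt mean of 10.6 TPM, and Glyur000604s00024573 was just outside at 9.72 TPM. Only Glyur001463s00032086 and Glyur002595s00035354 stayed in the set under all 27 other settings of the rule that were tried. Scaling each library to its listed total gave 23 genes, 12 of them among the 14, and median-of-ratios scaling gave 30, again with 12 of the 14. Without aerial control replicate 2 there were 43 genes, with all 14 among them, and without aerial control replicate 3 there were 26, with 11 of the 14.

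**Figure D1:**
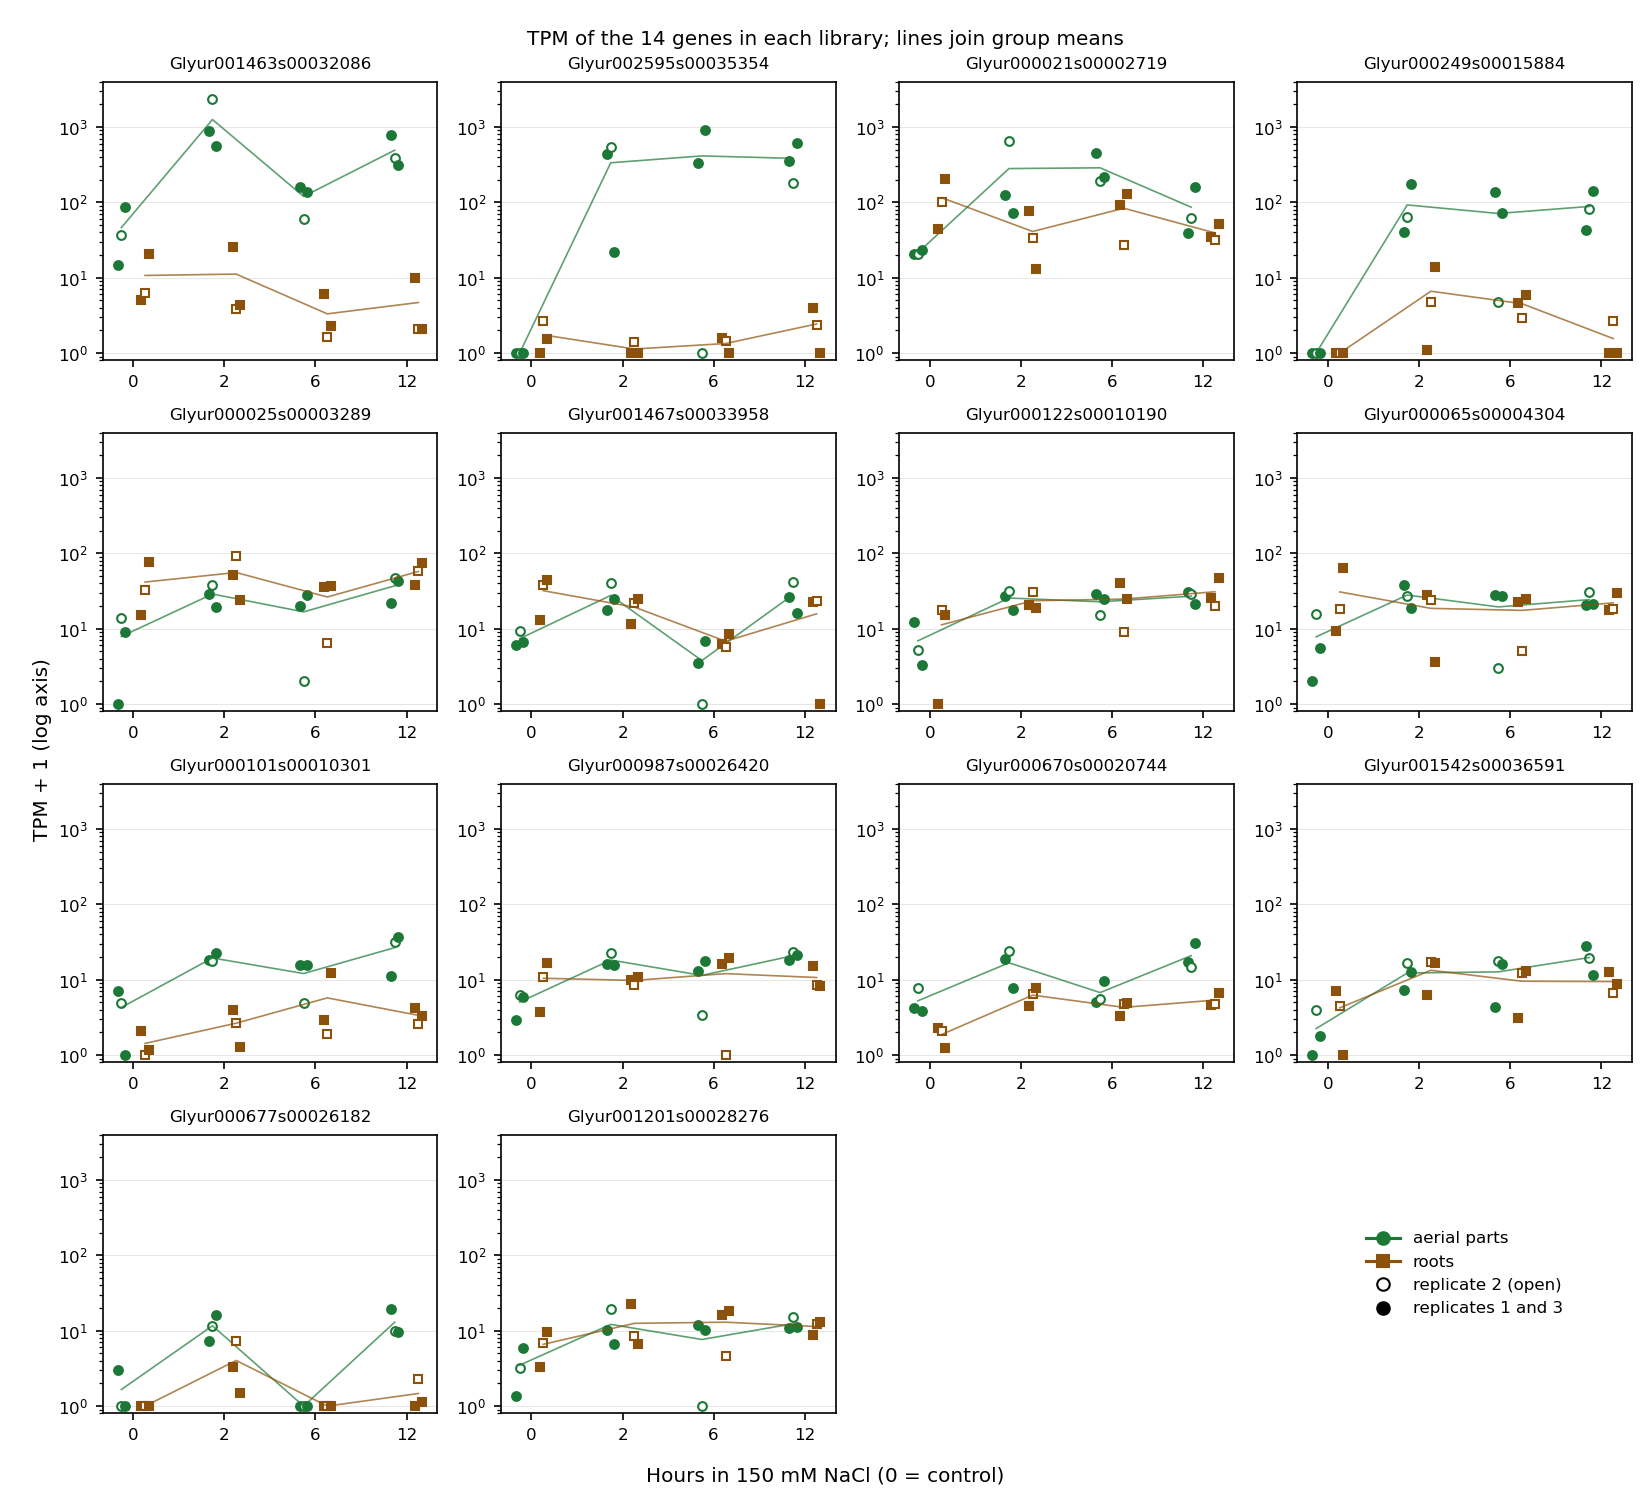
TPM + 1 of each of the 14 genes on a log axis, by hours in NaCl, in aerial parts (green circles) and roots (brown squares). Each point is 1 library, open symbols are replicate 2, and lines join group means; genes are ordered by their aerial salt level, and 4 of them stand well above the other 10.

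The set falls into 4 abundant genes, with aerial means of at least 50 TPM at both 2 h and 12 h, and 10 low ones. The most abundant was Glyur001463s00032086. It stood at 13.8, 35.8 and 86.1 TPM in the aerial controls, at 868, 2328.5 and 557 at 2 h, at 158, 59.4 and 138 at 6 h and at 772, 384 and 313 at 12 h. The 2 h and 12 h libraries thus all lay several-fold above the highest control. At 6 h the level was lower, and replicate 2 was below that control. The ratio of means to control was 27.1 at 2 h, 2.59 at 6 h and 10.6 at 12 h. Its root level was low throughout, at 4.02, 5.20 and 19.9 TPM in controls, and between 0.62 and 24.3 TPM in the 9 salt libraries.

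Glyur002595s00035354 was listed at 0 in all 3 aerial controls, so no fold is given. It stood at 442, 538 and 21.2 TPM at 2 h, at 335, 0 and 899 at 6 h and at 352, 182 and 611 at 12 h. The 0 at 6 h was in replicate 2, and replicate 3 was the low library at 2 h. In roots it was near absent in every library, with at most 1.70 TPM in controls and at most 2.97 TPM in salt.

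Glyur000249s00015884 was the other gene listed at 0 in all 3 aerial controls. It stood at 39.3, 62.1 and 172.65 TPM at 2 h, at 135.5, 3.78 and 70.9 at 6 h and at 42.1, 80.2 and 139 at 12 h. The low 6 h value was again that of replicate 2, and it was still above the controls. In roots this gene was also listed at 0 in the 3 controls, and it was present at 0.10, 3.83 and 12.9 TPM at 2 h and at 3.69, 1.94 and 4.93 TPM at 6 h. At 12 h it was listed at 0 in root replicates 1 and 3 and at 1.68 TPM in replicate 2. All 3 root libraries at 2 h were thus above the root controls, and it was the root mean of 5.62 TPM, below the level of 10, that kept the gene out of the root list.

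Glyur000021s00002719 was different in that its controls were expressed and tight, at 19.6, 19.5 and 22.3 TPM. It stood at 123, 644 and 70.5 TPM at 2 h, at 447, 191 and 218 at 6 h and at 38.1, 60.5 and 157 at 12 h. The 12 h mean was 0.31 times the 2 h mean on the (TPM + 1) scale, though the libraries of these times overlapped. In roots its means were lower in salt, with 42.9, 99.7 and 200.3 TPM in controls, 75.1, 32.7 and 12.2 at 2 h and 33.8, 30.9 and 50.1 at 12 h. The root ratios of 0.36 and 0.34 were just short of a 3-fold lower level, and the root libraries overlapped with their controls. Every root control lay above every aerial control, and at 6 h every aerial library lay above every root library.

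The other 10 genes reached aerial means of 10.6 to 27.8 TPM at 2 h and 11.4 to 36.1 at 12 h, from control means of 0.66 to 6.89 TPM. Their ratios to control were 3.19 to 7.00 at 2 h and 3.12 to 8.77 at 12 h. No aerial library of these genes exceeded 45.4 TPM. At such levels the 1 TPM added to each mean pulls the ratios towards 1, and the control libraries of 1 gene often differed by several-fold. Glyur000065s00004304, for example, stood at 1.02, 14.8 and 4.56 TPM in aerial controls, at 36.9, 26.2 and 17.7 at 2 h and at 19.9, 29.5 and 20.6 at 12 h. The highest control was thus only a little below the lowest salt library.

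The largest ratios among these 10 were those of Glyur001542s00036591 and Glyur000677s00026182. Glyur001542s00036591 was at 0, 2.94 and 0.80 TPM in aerial controls, at 6.25, 15.7 and 11.8 at 2 h, at 3.31, 16.8 and 15.0 at 6 h and at 26.8, 18.6 and 10.7 at 12 h. All 9 aerial salt libraries lay above all 3 controls. Its root mean also stood higher in salt, at 3.24 TPM in controls, 12.3 at 2 h and 8.45 at 12 h, with a ratio of 3.15 at 2 h, and an overlap of the libraries kept it out of the root list.

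Glyur000677s00026182 was listed at 0 in 2 aerial controls and at 1.98 TPM in the other. It stood at 6.25, 10.7 and 15.0 TPM at 2 h and at 18.6, 8.77 and 8.51 at 12 h, and it was listed at 0 in all 3 aerial and all 3 root libraries at 6 h. It is the only gene of the set whose ID has 2 rows in the files, and the rows differed in time. The first row held 2.69, 6.13 and 10.75 TPM at 2 h in aerial parts and was 0 in each of the other 21 libraries. The second row held 3.56, 4.52 and 4.23 TPM at 2 h and all of the 12 h value. The gene met the rule only with its rows summed. The files do not say what distinguishes rows of 1 ID.

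Glyur000101s00010301 stood at 6.02, 3.84 and 0 TPM in aerial controls, at 17.2, 16.6 and 21.5 at 2 h and at 10.3, 30.6 and 36.0 at 12 h. In roots it was low, with at most 3.18 TPM at 0, 2 and 12 h, and it reached 11.4 TPM in 6 h replicate 3. Glyur000987s00026420 had the tightest 12 h group of the low genes relative to its mean, at 17.3, 22.1 and 19.97 TPM, from 1.92, 5.30 and 4.93 in controls and 15.4, 21.8 and 14.5 at 2 h. Its root means hardly differed, at 9.45 ± 6.43 TPM (SD, n = 3) in controls, 8.79 ± 1.13 at 2 h and 9.69 ± 4.09 at 12 h. Both genes had every aerial library above every root library at 2 h and at 12 h.

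Glyur000025s00003289 and Glyur001467s00033958 were lower in aerial than in root controls, with no overlap of the libraries. Glyur000025s00003289 stood at 0, 12.7 and 7.94 TPM in aerial controls against 14.4, 31.7 and 75.6 in root controls. It came to 28.2, 37.0 and 18.4 TPM at 2 h and 20.8, 45.4 and 42.0 at 12 h in aerial parts, while the root means were 40.6 ± 31.6 TPM (SD, n = 3) in controls, 54.6 ± 33.7 at 2 h and 56.5 ± 18.2 at 12 h. In salt its aerial and root libraries overlapped at every time. Glyur001467s00033958 stood at 5.02, 8.35 and 5.73 TPM in aerial controls, at 16.6, 39.4 and 23.96 at 2 h and at 25.1, 41.2 and 15.2 at 12 h. Its root means were 30.9 ± 16.8 TPM in controls, 18.3 ± 6.90 at 2 h and 14.8 ± 12.8 at 12 h, so its aerial and root libraries overlapped at these times as well. Glyur000065s00004304 had a like pattern in means, with 6.81 ± 7.18 TPM in aerial and 29.8 ± 29.6 in root controls, but its control libraries overlapped between organs.

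Glyur000122s00010190, Glyur000670s00020744 and Glyur001201s00028276 had higher root means in salt too. Glyur000122s00010190 stood at 11.1, 4.26 and 2.31 TPM in aerial controls, at 26.1, 30.6 and 16.9 at 2 h and at 29.9, 27.6 and 20.5 at 12 h. In roots it stood at 0, 16.8 and 14.1 TPM in controls, at 19.8, 29.8 and 17.9 at 2 h and at 24.4, 18.95 and 46.3 at 12 h, so that its root libraries were also above all controls, by ratios of 2.09 and 2.74 that fall short of 3.

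Glyur000670s00020744 stood at 3.20, 6.67 and 2.88 TPM in aerial controls, at 17.7, 22.8 and 6.79 at 2 h and at 15.9, 13.6 and 29.9 at 12 h. In roots its ratios of 3.33 and 2.85 were like the aerial ones of 3.19 and 3.97, but its root means of 5.24 TPM at 2 h and 4.36 TPM at 12 h were under the level of 10. Glyur001201s00028276 stood at 0.36, 2.22 and 4.89 TPM in aerial controls, at 9.29, 18.4 and 5.66 at 2 h and at 9.73, 13.98 and 10.4 at 12 h. Its root means were 5.603 ± 3.21 TPM (SD, n = 3) in controls, 11.5 ± 8.66 at 2 h and 10.4 ± 2.27 at 12 h, and its root libraries overlapped with their controls.

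**Figure D2:**
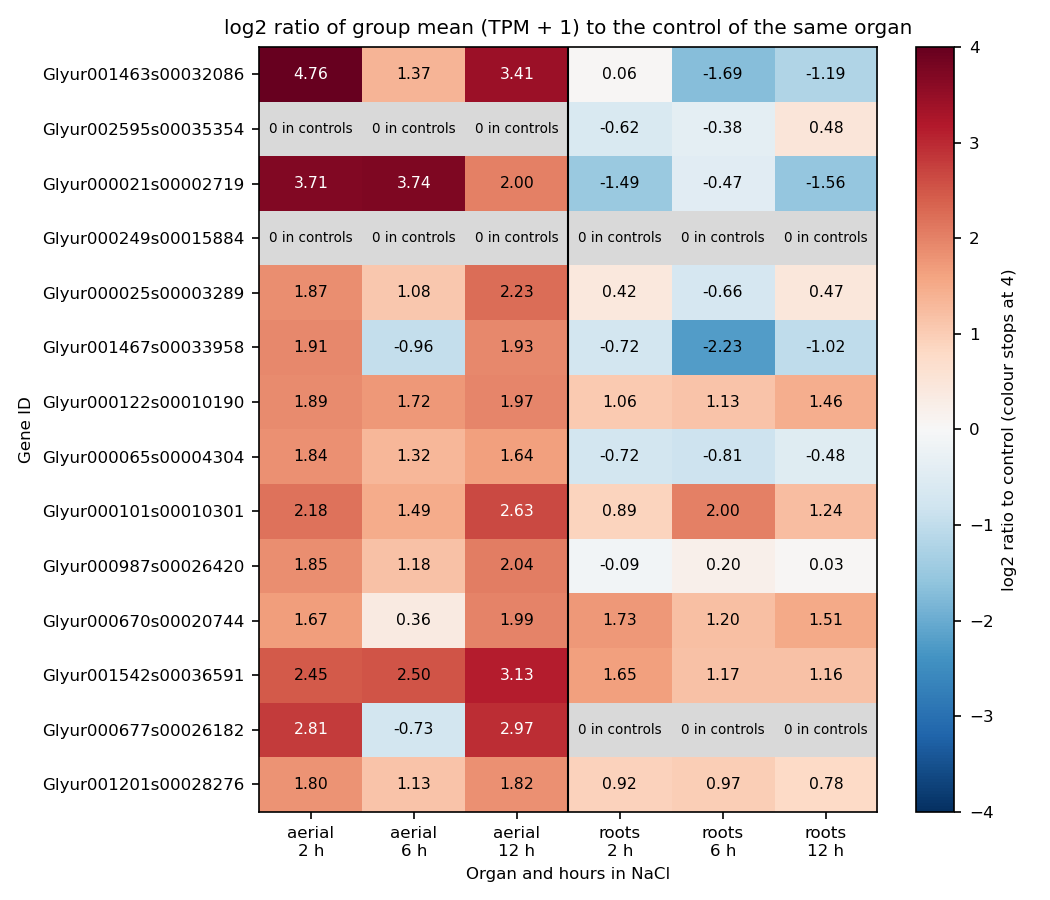
The log2 ratio of group means (TPM + 1) to the 0 h control of the same organ, for each gene and time; red is above control and blue below. Grey cells mark genes listed at 0 in all 3 controls of that organ, for which no ratio is given. The aerial 2 h and 12 h columns chose the genes, while roots range from -1.56 to 1.73 at these times.

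Not meeting the limits in roots did not always mean a level root value. With 1 TPM added, the root ratio was at least 2 at 2 h or 12 h in 6 of the 14 genes, among them both genes listed at 0 in all root controls, and it was below 1 at both times in 3, Glyur000021s00002719, Glyur000065s00004304 and Glyur001467s00033958. All 3 root libraries were above all root controls in 4 genes at 2 h and in 4 at 12 h, where 9.30% and 11.1% of all genes above 0 in these groups were. In none of the 14 were all 3 below, as 12.9% of genes were at 2 h and 12.4% at 12 h. The rule bears on these counts, so nothing is read from them. At 2 h, 3 genes had root libraries all above their controls and a ratio past 3, and the level of 10 TPM kept them off the root list. For 6 genes no root mean at 0, 2 or 12 h reached 10 TPM, so there the rule could not have called a root difference at all. The difference between organs in these responses was not tested, since the rule chose on it.

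In controls the root mean was above the aerial mean in 9 of the 14 genes, and at 12 h the aerial mean was above the root mean in 12. No share over all genes is given for this order of means, and the shares below are for libraries that separate fully. Every aerial library lay above every root library in 1 gene in controls, Glyur000670s00020744, where 14.0% of genes above 0 in either group had this order. The same order held in 6 of the 14 at 2 h (23.2% of genes that reached 10 TPM), in 3 at 6 h (11.1% of genes above 0) and in 7 at 12 h (26.8% of genes that reached 10 TPM). The reverse order held in 3 of the 14 in controls, against 16.9% of genes. It held in none at 2 h or 12 h, against 35.7% and 40.8% of genes that reached 10 TPM. Nor did it hold in any at 6 h, against 15.6% of genes above 0. The shares over genes above 0 include genes below 10 TPM, so they do not compare with those at 2 h and 12 h. The counts at 0, 2 and 12 h follow in part from the rule, which asked for aerial salt values well above the aerial controls and for no root call.

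**Figure D3:**
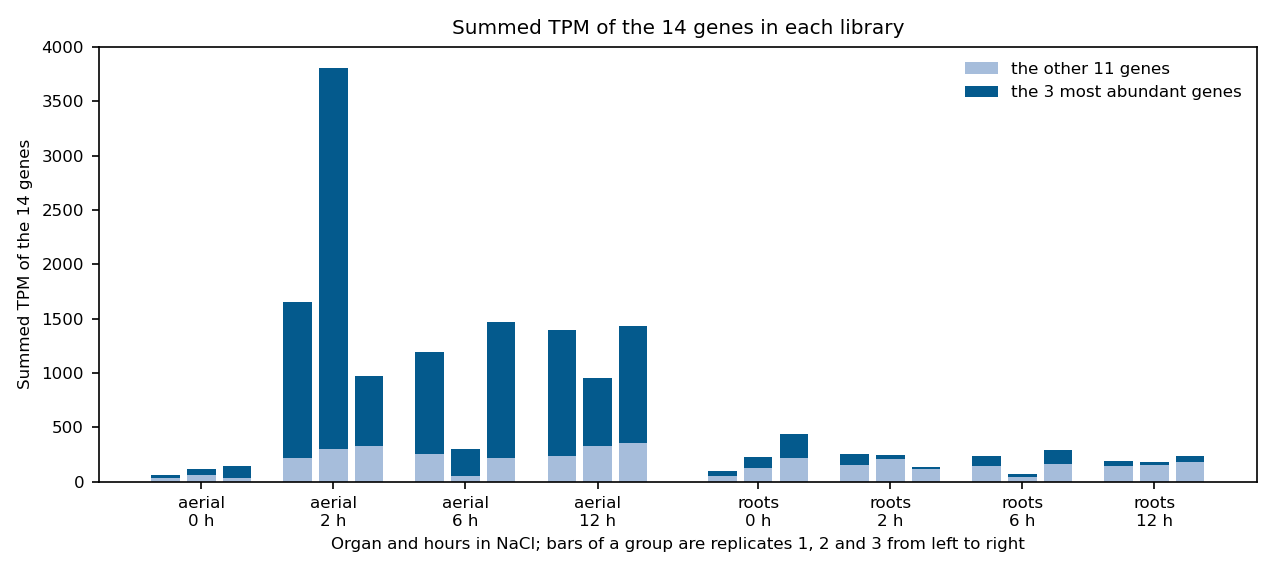
Summed TPM of the 14 genes in each library, by organ and hours in NaCl, split into the 3 most abundant genes (dark) and the other 11 (light). The sum was 64.0 to 142 in aerial controls and 974 to 3811 at 2 h, and most of the salt total came from the 3 most abundant genes.

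Summed over the set, the aerial TPM was 108 ± 40.0 (SD, n = 3) in controls, 2146 ± 1482 at 2 h, 990 ± 614 at 6 h and 1263 ± 266 at 12 h. At 6 h replicate 2 was at 299.5, and the other libraries were at 1198 and 1473. In roots it was 256 ± 175 in controls and 212 ± 67.0, 199.6 ± 114 and 202 ± 29.0 at 2, 6 and 12 h. The 3 most abundant genes, Glyur001463s00032086, Glyur002595s00035354 and Glyur000021s00002719, held 66.6% to 92.1% of the sum in the 2 h aerial libraries and 65.4% to 83.1% at 12 h. The spread at 2 h came mainly from them: without them the aerial sum was 42.0 ± 16.7 TPM in controls, 282 ± 55.5 at 2 h and 307 ± 61.8 at 12 h. Replicate 2 was the highest 2 h aerial library for 10 of the 14 genes, while it was the highest for 29.4% of the 5802 genes whose mean in that group reached 10 TPM.

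The aerial means at 2 h and 12 h lay within 1.5-fold of each other, on the (TPM + 1) scale, in 11 of the 14 genes. No share over all genes is given for this count, and the rule asked for a higher level at both times, so nothing is read from it. Libraries of 1 group also spread widely in some genes, so close means do not show a similar level. Glyur002595s00035354, for example, stood at 21.2 to 538 TPM in aerial parts at 2 h. Glyur000021s00002719 and Glyur001463s00032086 had lower means at 12 h, by ratios of 0.31 and 0.39, and Glyur001542s00036591 had a higher one, by a ratio of 1.61. In none of the 14 did the libraries of these times separate, although every 12 h library was above every 2 h library in 27.0% of 6693 genes that reached 10 TPM at either time, and the reverse held in 16.4%. Both groups were used to choose the genes, so this is a description with no test.

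The 6 h libraries show whether the higher level held between these times. They were not used in the choice, but the controls they are compared with were, so these counts carry no test. By the limits used for the other times, 4 of the 14 genes were higher in aerial parts at 6 h, where 0.934% of 6850 genes were. These were Glyur000021s00002719, Glyur000122s00010190, Glyur000249s00015884 and Glyur001542s00036591. Of the genes that met the aerial limits at 2 h but not at 12 h, with no root call, 13 of 175 met them at 6 h, and of those that met them at 12 h but not at 2 h, 5 of 89 did. All these counts use the same controls, and the difference between them was not tested.

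Replicate 2 set much of the 6 h result. It was the lowest of the 3 aerial 6 h libraries in 11 of the 13 genes above 0 there, against 35.2% of the 5966 genes whose mean in that group reached 10 TPM. In roots it was the lowest for 10 of 13 genes, against 44.7% of 6423 genes. Replicate 1 lay above all aerial controls in 11 of the 14 genes and replicate 3 in 12, but replicate 2 did so in 4. No share over all genes is given for these counts, and the choice bore on the controls. They describe only how the replicates differed within the set. Without it, 9 of the 14 met the limits at 6 h, where 1.63% of 6826 genes did. Glyur000021s00002719, Glyur000122s00010190 and Glyur000249s00015884 were among these 9, and Glyur001542s00036591, whose highest 6 h library is replicate 2, was not. What sets this library apart was not tested.

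In 3 genes the aerial 6 h level was low with or without replicate 2, so a higher level at every time does not describe them. Glyur000677s00026182 was at 0 in all 6 h libraries, as given above. Glyur001467s00033958 stood at 2.5, 0 and 5.85 TPM in aerial parts at 6 h, where its controls were at 5.02 to 8.35. In roots it stood at 5.31, 4.68 and 7.49 TPM at 6 h, below every root control (11.9, 36.9 and 43.9 TPM) and at a ratio of 0.21. It was the only gene of the set that met the limits for a lower level in roots at 6 h, as 1.56% of 7299 genes did. Glyur000670s00020744 stood at 4.10, 4.62 and 8.53 TPM in aerial parts at 6 h, within or little above its controls. None of the 14 met the limits for a higher level in roots at 6 h, where 2.59% of 7299 genes did.

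In 6 of the other low genes the 6 h replicates 1 and 3 were above the controls and replicate 2 was the lowest. Glyur000025s00003289 stood at 18.95, 1.05 and 27.2 TPM. Glyur000065s00004304 stood at 27.2, 2.01 and 26.1, and Glyur001201s00028276 at 10.75, 0 and 9.19. In these genes replicate 2 was below the middle control, and the other libraries were above the highest. Glyur000101s00010301 stood at 14.6, 3.93 and 14.7 TPM and Glyur000987s00026420 at 12.1, 2.45 and 16.7. In both, replicate 2 lay within the range of the controls and the other libraries above it. Glyur000122s00010190 stood at 27.5, 14.05 and 23.75 TPM, where replicate 2 was again the lowest but was above all of its controls.

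The organ comparison at 6 h uses libraries that had no part in choosing the genes, and it was tested. limma was fitted to log2(TPM + 1) of the 3 aerial and 3 root libraries at 6 h over 16685 genes, and the Benjamini-Hochberg adjusted p was called under 0.05. Of all genes, 1473 (8.83%) were called higher in aerial parts and 1586 (9.51%) higher in roots. Of the 14 genes 13 had a mean TPM high enough to be tested, and Glyur000677s00026182 did not. The filter used the mean over both organs, which a gene expressed in 1 organ alone can also reach. The counts over those tested are therefore no support in themselves.

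Of the 13 genes, 1 was called higher in aerial parts and none higher in roots by limma, and at an unadjusted p under 0.05 there were 3 and 0. Over all genes that unadjusted limit was met by 13.0% as higher in aerial parts and 17.9% as higher in roots, and nothing is read from the count of 3. Glyur001463s00032086 stood at 119 ± 52.3 TPM (SD, n = 3) in aerial parts and 2.32 ± 2.40 in roots at 6 h, a difference of 5.29 on the log2(TPM + 1) scale (SE 0.60, limma adjusted p = 0.002), with all aerial libraries above all root ones. The test compares organs within salt, so it does not show a response to salt. In controls the mean of this gene was also higher in aerial parts, at 45.2 TPM against 9.71 in roots, with overlapping libraries. Across the alternatives that fitted 6 h libraries alone, the limma adjusted p of Glyur001463s00032086 ranged from 0.0011 to 0.0138. With all 24 libraries in the fit the limma adjusted p was 7.30e-05, but that spread includes libraries the rule used. Glyur000021s00002719 differed by 1.94 (SE 0.63, limma adjusted p = 0.0849) and Glyur000249s00015884 by 3.05 (SE 1.205, limma adjusted p = 0.141), and neither passed the adjusted threshold.

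For Glyur002595s00035354 the difference of 5.67 had an SE of 2.42 and a limma adjusted p of 0.17, and the 0 in aerial replicate 2 gave it its wide interval of -0.12 to 11.5. Without aerial replicate 2, Glyur002595s00035354 (8.71, limma adjusted p = 0.000942) and Glyur000249s00015884 (4.51, limma adjusted p = 0.00392) were called as well, where 8.87% of genes were called higher in aerial parts. These and Glyur001463s00032086 were also the 3 genes called without replicate 2 of both organs, where 11.4% of genes were. Aerial and root libraries at 6 h share numbers in their titles, and with that number as a replicate block 2 genes were called, Glyur001463s00032086 and Glyur000021s00002719 (limma adjusted p = 0.033), where 11.0% of all genes were called higher in aerial parts. With the block, 2 genes were higher in roots at an unadjusted p under 0.05, as 22.9% of all genes were, and neither passed after adjustment.

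**Figure D4:**
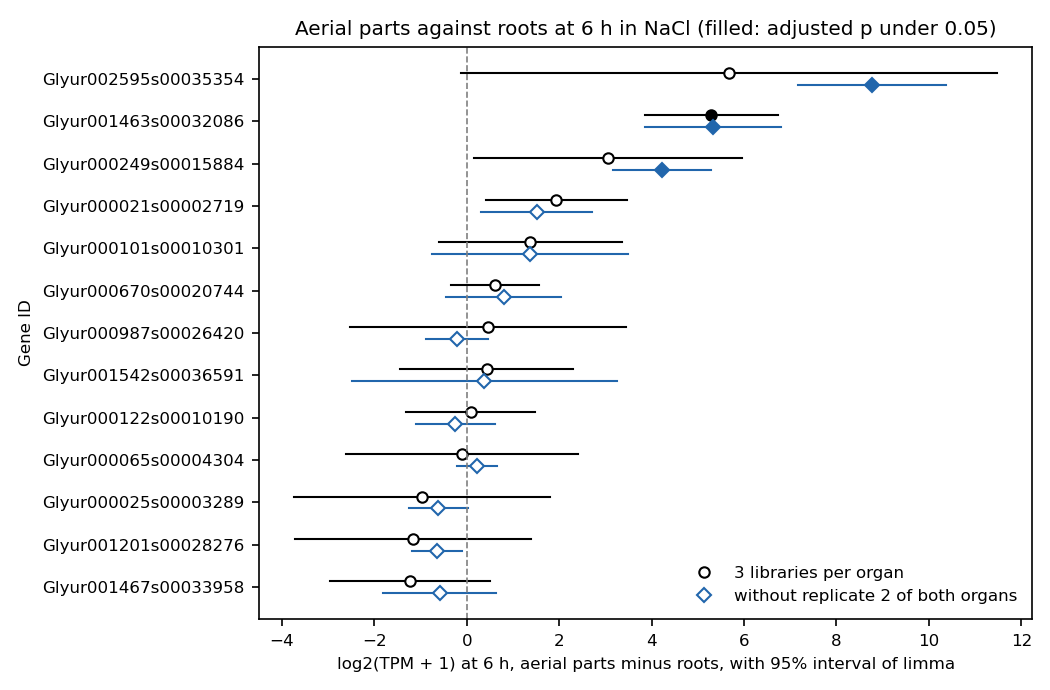
The difference between aerial parts and roots at 6 h on the log2(TPM + 1) scale, with the 95% interval from limma, for the 13 genes tested. Black circles use 3 libraries per organ and blue diamonds leave out replicate 2 of both organs; filled symbols have an adjusted p under 0.05, which holds for 1 gene in the first and 3 in the second.

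The other 9 genes tested were not called, and most intervals are too wide to show that the organs were alike. With all libraries, 5 of these 9 had estimates above 0 and 4 below. The narrowest interval was that of Glyur000670s00020744, from -0.34 to 1.57 around 0.62, at 5.75 ± 2.42 TPM in aerial parts and 3.30 ± 0.87 in roots (SD, n = 3). Glyur000122s00010190 was nearly level between organs, at 21.8 ± 6.92 and 23.7 ± 16.0 TPM, with a difference of 0.08 and an interval from -1.32 to 1.49. The lowest estimates were -1.22 for Glyur001467s00033958 (interval -2.96 to 0.51) and -1.16 for Glyur001201s00028276 (interval -3.72 to 1.39). The median difference was 0.46 over the 13 genes and -0.22 over all genes tested. The first depends on single libraries: it was 0.14 without aerial replicate 3, 0.97 without aerial replicate 2, 0.79 without aerial replicate 1, 0.69 without root replicate 2 and 0.79 without root replicate 3. Libraries scaled by median of ratios gave medians of 0.70 over the 13 and -0.04 over all genes, with 1657 genes called higher in aerial parts and 1218 in roots, and libraries scaled to their listed totals gave 0.36 and -0.33, with 1387 and 1908. Under each of these scalings Glyur001463s00032086 was again the 1 gene called among the 13.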

How the data were processed

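One table per library was deposited, with values in TPM per the file headers, as the authors made them. Per the submitters' processing notes, the tools included fastp and HISAT2, StringTie and RSEM, and edgeR and DESeq2. Their versions and the genome build: not given in the sources used here. Rows of 1 gene ID were summed (2751 of 34445 IDs had several rows), and no pair of libraries had identical values.

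All 14 members are named. The members, lists and tests were chosen with earlier results of these data known. log2(TPM + 1) at 6 h was fitted by limma 3.58.1 (R 4.3.3) with eBayes and trend on. Genes entered if their mean TPM in these 6 libraries was 0.5 or more, and p-values are two-sided. Tables were handled in Python 3.11.15, and the fit was run on simulated data. The simulated libraries were drawn independently, so that run does not cover a pairing of aerial and root libraries by title number. Nothing is read from it. The planned gene lists and marker lists hold names, which these IDs lack, so none was tested.

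Titles number aerial and root salt libraries alike. At 6 h the deviations of same-numbered libraries from their group means correlated at 0.43, 0.56 and 0.49 over 16685 genes, and other pairs at -0.43 to 0.13. Deviations from a group mean balance out within the group, which lowers the values of other pairs, and replicate 2 stood apart in both organs. The main test was planned without the block and takes no account of a pairing by number. The block was fitted as an alternative. Other alternatives were scaling, pseudocount, filter, the limits of the rule and libraries left out.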

Additional observations from a re-analysis of the deposited data

Results flagged for a closer look

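Glyur001463s00032086 stood on opposite sides of the controls in the 2 organs at 6 h. All 3 aerial libraries lay above the aerial control mean, with a ratio of group means (TPM + 1) of 2.59 (3.23 for replicates 1 and 3), and all 3 root libraries lay below the root control mean, with a ratio of 0.31. Aerial replicate 2 was below the highest aerial control, and root replicate 1, at 5.06 TPM, was within the range of the root controls. The difference between these responses was not tested.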

How the results depend on the processing

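The 14 genes are a choice at fixed limits, and their number moved with most settings. It was 23 with listed-total scaling, 30 after median-of-ratios scaling, 52 and 5 under a 2-fold and a 5-fold limit, 23 and 9 with a level of 5 and 20 TPM, and 22 and 5 with a pseudocount of 0.1 and 5. With 1 library left out it was 10 to 43. Higher genes at 6 h, 4 with all libraries, were 3 to 9 with 1 library left out. Over all genes, 3059 were called between organs at 6 h, 4792 with all 24 libraries in the fit, 4118 with the replicate block and 1767 to 3273 with 1 library left out. Called members, 1 in the main fit, were 2 with the replicate block and 1 to 3 with 1 library left out. They were 3 without 6 h replicate 2 of both organs, an alternative added after the data were seen. With all 24 libraries in the fit they were also 3, where 2063 of 16718 genes were called higher in aerial parts. That fit takes its spread in part from libraries the rule used, so its calls are no support.

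Signs changed in 5 genes that were not called. Glyur000065s00004304 (-0.10) was at 0.0064 with a pseudocount of 5, 0.14 with median-of-ratios scaling, 0.22 without replicate 2 of both organs and -0.84 to 0.97 with 1 library left out. Glyur000122s00010190 (0.08) was at -0.054 with listed-total scaling, -0.25 without replicate 2 of both organs and -0.52 to 0.57 with 1 left out. Glyur000987s00026420 (0.46) was at -0.20 without replicate 2 of both organs and -0.91 to 1.21 with 1 left out. With 1 left out, Glyur000025s00003289 (-0.97) was at -1.79 to 0.21 and Glyur001542s00036591 (0.43) at -0.25 to 1.09. The cause was not tested. Depth is unknown, so no limit from it is given.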

Other observations

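The IDs of the 14 genes share no first number, the part before the letter s. In the order of the IDs, up to 3 neighbours on each side with the same first number gave 73 genes. Of these, 29 reached 10 TPM in some library, none met the aerial limits at 2 h and 2 met them at 12 h. Of all 34445 IDs, 260 met the aerial limits at 2 h and 135 at 12 h. Over genes whose larger mean reached 10 TPM these shares were 3.74% and 1.95%, but the 73 neighbours include genes below that level. Nothing is read from these counts.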
